A study of Mus musculus with 6 samples.

Results

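The ADAM genes, which encode membrane-anchored proteins with a disintegrin and a metalloprotease domain, were followed through the cell classes of the mouse testis. Members were all measured symbols made of Adam, a number and at most 1 further letter, with at least 1 unique molecular identifier (UMI, 1 per counted transcript). This gave 31 of 25771 measured genes. The data were single-cell transcriptomes of 46495 cells, made with the 10x Genomics 3′ chemistry from enzyme-digested testes of adult C57BL6 mice. The genotypes were NONO deltaER, with 3 libraries (TD, TE, TF), and NONO, with 3 libraries (TA, TB, TC). NONO is a paraspeckle protein that binds nucleic acids in the nucleus, and the sources used here do not say what deltaER alters. In the cell table the groups are called KI and WT, which were read as NONO deltaER and NONO. Were this reading wrong, every direction would turn. The labels do not tie the libraries of a genotype to separate animals, and p-values therefore cover the variation among libraries, part or all of which may be technical.

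Depth ran from 81042216 to 89870685 UMI per NONO deltaER library and from 85715508 to 110018960 UMI per NONO library, and germ cells made up 90.7% to 92.8% of the cells of a library. Levels are given in CPM, for which every class of every library was brought to the same total. Of 45836 different cell barcodes, 650 occurred in more than 1 library. The libraries parted into a set with a low median mitochondrial percentage (TD, TE and TC, at most 0.0182%) and a set with a higher one (TF, TA and TB, at least 0.0735%). The 12 germ cell and 5 somatic classes carry the deposited names, which serve as labels only. SG stands for spermatogonia, SC for spermatocytes and ST for spermatids. The lists for undifferentiated spermatogonia, Sertoli cells, Leydig cells, myoid cells and macrophages were highest in the class of that name, and the round spermatid list in Round ST(Step 4-5). The early spermatocyte list (Meiob, Hormad1, Sycp1, Prdm9, Dmc1) averaged 5212 CPM in Preleptotene SC, 3796 CPM in Differentiated SG and 1489 CPM in Lep/Zygo/ePac SC. The differentiating spermatogonia list (Kit, Stra8, Dmrtb1, Sohlh1) was highest in Round ST(Step 1-2) at 1165 CPM, where 1 of its 4 genes had counts enough to be tested. It averaged 1113 CPM in Differentiated SG. The late spermatocyte list was highest in Lep/Zygo/ePac SC and the elongated spermatid list in Round ST(Step 7-8). Round ST(Step 1-2) held 4363 CPM of the late spermatocyte list, IPac/eDip SC 4357 CPM. Its round spermatid list was at 343 CPM. The names Differentiated SG and Round ST(Step 1-2) thus go against the markers. Lep/Zygo/ePac SC held more of the early spermatocyte list than IPac/eDip SC, which had 347 CPM. Whether Lep/Zygo/ePac SC and Round ST(Step 7-8) fit their names is not settled by these lists. The class named Unknown carried the interstitial fibroblast list (Dcn, Pdgfra, Col1a1).

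ADAM proteins are made as precursors, carried to the cell surface and trimmed by proprotein convertases. Several, such as ADAM10 and ADAM17, are active proteases that release the outer part of other membrane proteins, a step called shedding. A large branch of the family is made in male germ cells and reaches the sperm surface, where fertilin (ADAM1 and ADAM2) and cyritestin (ADAM3) serve the passage of sperm into the oviduct and binding to the egg coat. Many of these sperm proteins lack an active protease site.

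RefSeq promoter windows of GRCm38.p6, from 250 bases before to 50 after a gene's start, were found for 16 of the 31 members. They cover 0 of the 6 germ cell members with spermatocyte onset, 5 of the 8 with onset at step 3 and all 3 with onset at steps 4-5, groups that are described further on. The windows of the last 3, Adam6a, Adam6b and Adam29, are shown because they alone among the 16 hold the letters TATAAA, the core of a TATA box, on either strand. These letters occur in 13.6% of all 32851 windows. Adam20, a step 3 member, is shown for contrast, and Adam10 as a member of the class named Differentiated SG and of somatic cells. Capitals mark these letters, read on the other strand in Adam6a and Adam6b. In Adam10 they mark a short form of the cAMP response element, TGACG, also read on the other strand. The motifs were chosen with the levels known, and a match is a description of the letters only.
Adam6a, chr12:113543658-113543957, plus strand: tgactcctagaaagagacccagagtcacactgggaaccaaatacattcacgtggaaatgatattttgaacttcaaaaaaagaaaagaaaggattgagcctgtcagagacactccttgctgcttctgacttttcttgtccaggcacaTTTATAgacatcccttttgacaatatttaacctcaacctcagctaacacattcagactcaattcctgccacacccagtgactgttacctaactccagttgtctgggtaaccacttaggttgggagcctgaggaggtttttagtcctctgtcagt
Adam6b, chr12:113489315-113489614, plus strand: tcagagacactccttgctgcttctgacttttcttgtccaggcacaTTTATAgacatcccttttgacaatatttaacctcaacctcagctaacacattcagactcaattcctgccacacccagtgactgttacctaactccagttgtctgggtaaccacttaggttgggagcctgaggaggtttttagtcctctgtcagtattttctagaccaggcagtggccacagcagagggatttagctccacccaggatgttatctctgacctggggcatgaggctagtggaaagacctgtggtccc
Adam29, chr8:55906915-55907214, minus strand: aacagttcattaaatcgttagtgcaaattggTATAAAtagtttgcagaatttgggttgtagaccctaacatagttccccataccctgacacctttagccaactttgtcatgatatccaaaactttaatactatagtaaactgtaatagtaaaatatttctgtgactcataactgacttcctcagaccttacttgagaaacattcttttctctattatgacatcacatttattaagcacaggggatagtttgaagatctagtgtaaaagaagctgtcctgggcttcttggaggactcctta
Adam20, chr8:40793023-40793322, plus strand: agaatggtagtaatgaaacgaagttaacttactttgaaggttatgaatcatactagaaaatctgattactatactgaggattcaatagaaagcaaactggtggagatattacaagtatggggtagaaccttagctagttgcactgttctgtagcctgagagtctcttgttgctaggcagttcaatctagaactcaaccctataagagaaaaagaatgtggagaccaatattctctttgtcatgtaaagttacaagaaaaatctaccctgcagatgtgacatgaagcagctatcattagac
Adam10, chr9:70678732-70679031, plus strand: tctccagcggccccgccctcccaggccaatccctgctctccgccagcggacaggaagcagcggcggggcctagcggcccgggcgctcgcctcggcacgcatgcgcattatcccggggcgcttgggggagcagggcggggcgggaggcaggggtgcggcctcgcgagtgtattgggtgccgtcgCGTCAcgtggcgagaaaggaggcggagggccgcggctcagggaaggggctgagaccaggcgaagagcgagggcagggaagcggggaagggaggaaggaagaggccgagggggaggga

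In Adam29 TATAAA began 219 bases before the start, on the sense strand. Adam6a and Adam6b, which lie within the immunoglobulin heavy-chain region, share a run of 199 identical bases that begins at base 102 of the Adam6a window and at base 1 of the Adam6b window. Their TATAAA on the other strand lies inside this run, 104 and 205 bases before the annotated starts of Adam6a and Adam6b, so the matches in these genes are 1 sequence seen in both copies. The full cAMP response element TGACGTCA was found in 1.79% of all windows and in 0 of the 16 members. The short form TGACG was found in 20.8% of all windows and in 1 member, Adam10.

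Among the members of the sperm and testis groups, 17 had at least 100 UMI, and 98.9% to 99.5% of their UMI lay in germ cell classes, against 98.2% of the UMI of all genes. These 17 fell into 3 groups by the first class after preleptotene at which a gene reached 10% of its highest germ cell level. This rule was set with the levels in view, and classes were made from the same cells, so the timing is a description without a test. The earliest group, with onset in Lep/Zygo/ePac SC, held Adam2, Adam3, Adam5, Adam18, Adam32 and Adam30. The second, with onset in Round ST(Step 3), held Adam20, Adam21, Adam24, Adam25, Adam26a, Adam26b, Adam34 and Adam39. The third, with onset in Round ST(Step 4-5), held Adam29, Adam6a and Adam6b.

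**Figure D1:**
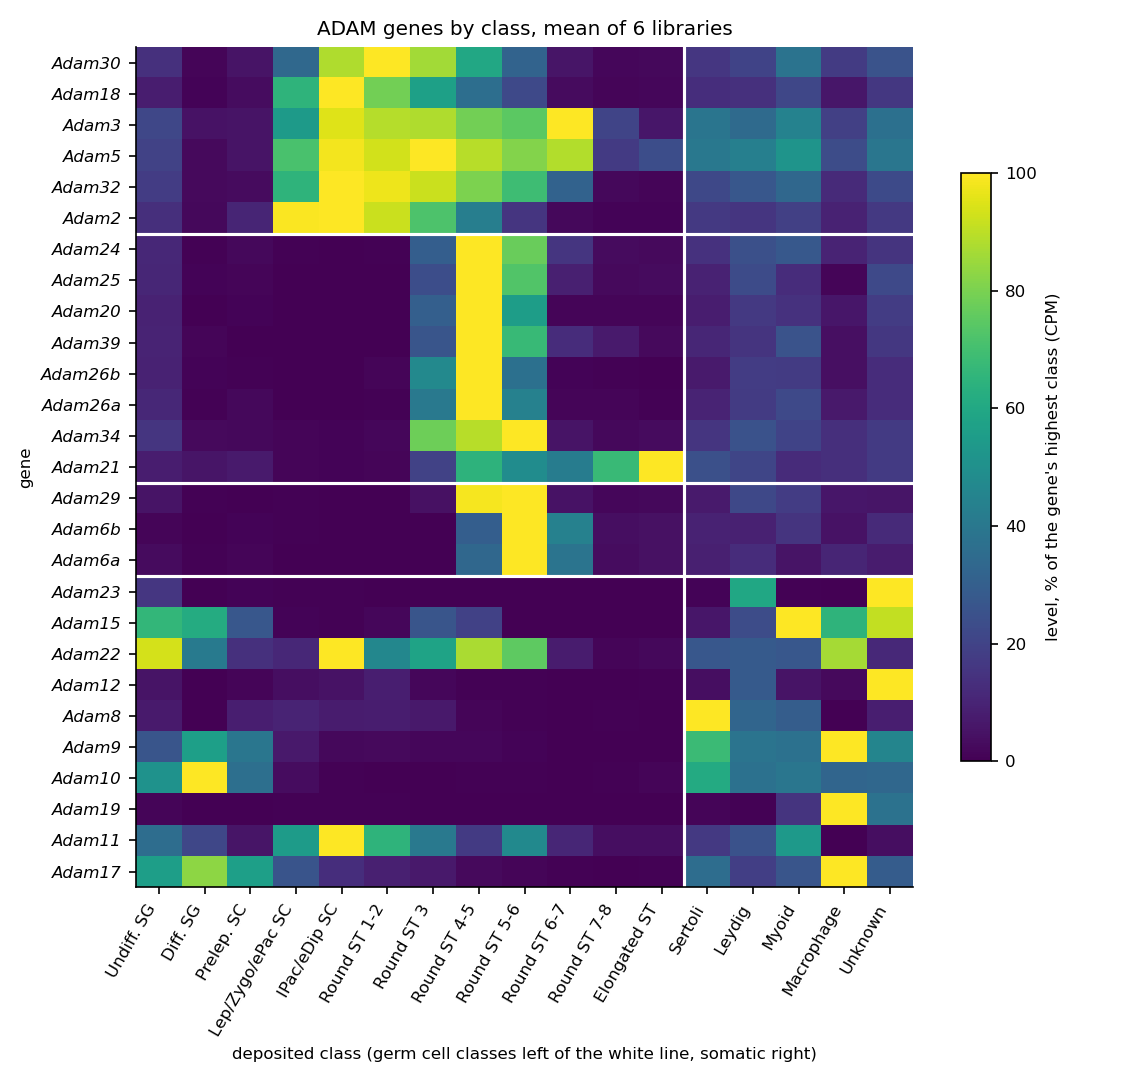
Level of the ADAM genes with at least 100 UMI (vertical) in the 17 deposited classes (horizontal), as a percentage of each gene's highest class, from the mean CPM of 6 libraries. White horizontal lines part the groups by onset (spermatocyte, step 3, steps 4-5 and other members), and Adam21 is the member of the germ cell groups whose highest class is Elongated ST, with 61.2 CPM.

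The sperm-surface members of the earliest group appeared together. Adam2, the beta subunit of fertilin, had 27.3, 38.4 and 79.6 CPM in Preleptotene SC of NONO deltaER (TD, TE, TF) and 61.8, 64.7 and 66.3 CPM in NONO (TA, TB, TC). In the next class, Lep/Zygo/ePac SC, the same libraries held 527, 519 and 535 CPM (NONO deltaER) and 548, 548 and 527 CPM (NONO). All 6 libraries stood several times higher than any of them had in the class before, and the genotypes overlapped in both classes. Adam2 was at 99.3% of its highest level there already, whereas Adam3, Adam18, Adam32 and Adam5 had reached between 54.4% (Adam3) and 71.3% (Adam5).

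These genes parted again at the end of their expression. Adam2 averaged 83.5 ± 4.30 CPM in Round ST(Step 5-6) and 11.3 ± 0.774 CPM in Round ST(Step 6-7) (SD, n = 6 libraries), with 538 ± 12.6 CPM at its highest in IPac/eDip SC. Adam18, a relative of cyritestin, was at 22.2% in Round ST(Step 5-6) and 3.12% in Round ST(Step 6-7). Adam3 had its highest level in Round ST(Step 6-7), with 867, 894 and 980 CPM in the NONO deltaER libraries and 923, 903 and 891 CPM in the NONO libraries. Its level was 186 ± 9.57 CPM in Round ST(Step 7-8), 20.4% of that. The 3 NONO values lay inside the span of the NONO deltaER values. Adam5, with 895 ± 73.2 CPM in Round ST(Step 6-7) and 172 ± 13.5 CPM in Round ST(Step 7-8), had the same late end and stood at 240 ± 18.3 CPM in Elongated ST. Adam32 lay between, at 31.6% of its highest level in Round ST(Step 6-7) and 2.30% in Round ST(Step 7-8). Adam30, which is testis-specific but not part of the fertilin and cyritestin complexes, began more slowly (33.9% in Lep/Zygo/ePac SC) and was highest in Round ST(Step 1-2), with 193 ± 6.29 CPM.

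**Figure D2:**
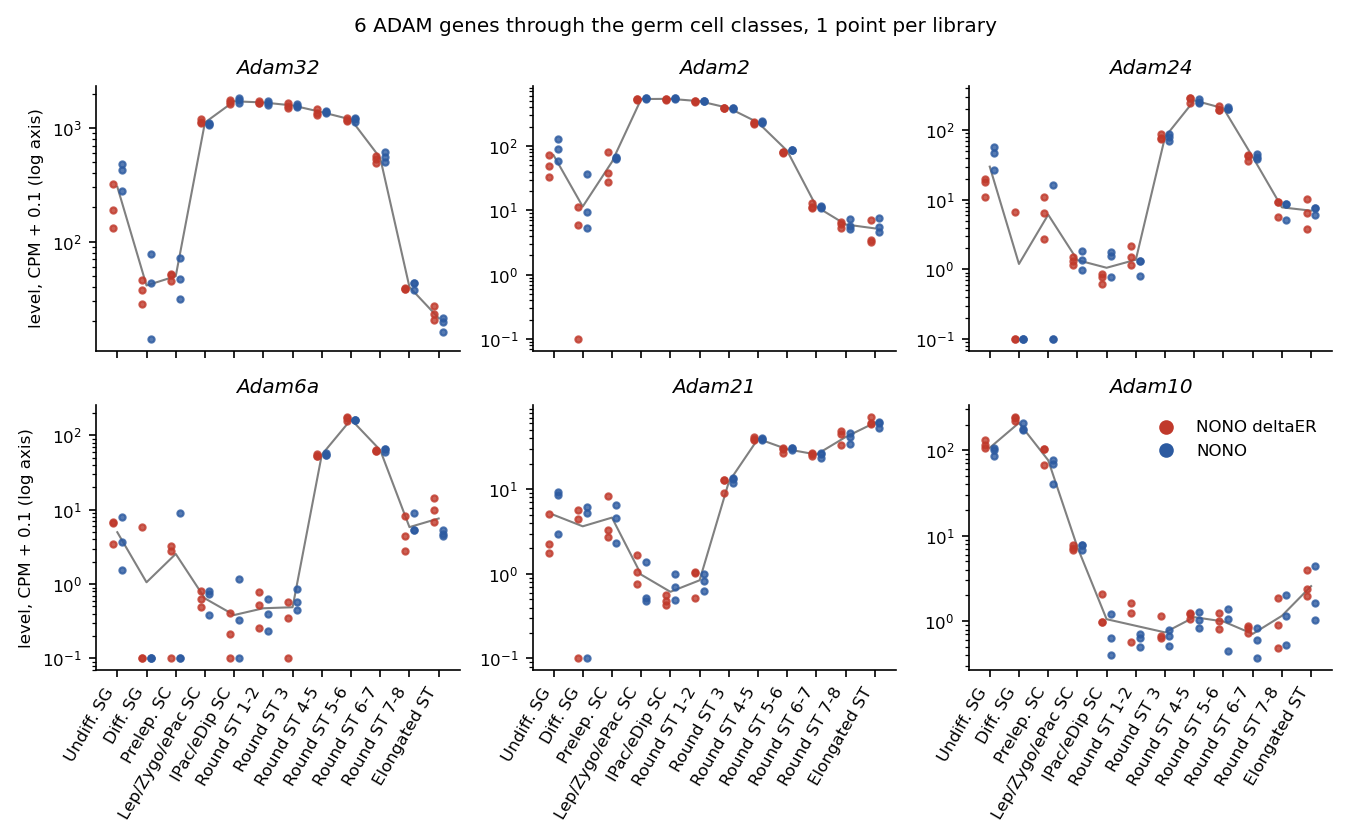
Level of 6 ADAM genes in the 12 germ cell classes (CPM + 0.1 on a log axis), 1 point per library, with NONO deltaER left of NONO and the mean of the 6 libraries as a line. Adam32 and Adam2 appear in spermatocytes, Adam24 and Adam21 at step 3, Adam6a at steps 4-5, and Adam10 has its highest germ cell level, 209 CPM, in Differentiated SG.

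The step 3 group holds mouse testases (Adam24, Adam25, Adam26a and Adam34 among them), testis ADAMs that keep an active protease site. Adam24 averaged 1.52 ± 0.538 CPM in Round ST(Step 1-2) of NONO deltaER and 1.04 ± 0.283 CPM in NONO (SD, n = 3 each). In Round ST(Step 3) it had 78.5, 88.2 and 75.6 CPM in NONO deltaER and 71.0, 79.5 and 87.2 CPM in NONO. The step from one class to the next was thus far wider than the spread of the libraries, and the genotypes overlapped in both. The members Adam20, Adam24, Adam25, Adam26a, Adam26b and Adam39 were highest in Round ST(Step 4-5), where Adam26a reached 275 ± 10.8 CPM and Adam20 223 ± 12.7 CPM (SD, n = 6 libraries). In Round ST(Step 6-7) Adam20 and Adam26a were at 1.49% and 1.26% of that level, while Adam24 still had 15.4% and Adam39 12.7%. Adam34 was at 77.9% of its highest level as early as step 3 and was highest in Round ST(Step 5-6), with 87.6 ± 7.22 CPM. Adam21 was the exception in the group, with 39.4 ± 1.44 CPM in Round ST(Step 4-5), 25.7 CPM in Round ST(Step 6-7) and its highest level, 61.2 ± 5.66 CPM, in Elongated ST.

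The latest group began within 1 class. Adam6a, whose product is found with ADAM2 and ADAM3 on mouse sperm, had 0.252, 0 and 0.473 CPM in Round ST(Step 3) of NONO deltaER and 0.771, 0.351 and 0.483 CPM in NONO. In Round ST(Step 4-5) it had 53.3, 55.9 and 53.2 CPM in NONO deltaER and 54.6, 58.7 and 53.9 CPM in NONO. Its highest level, 164 ± 6.54 CPM, and that of Adam6b, 136 ± 8.51 CPM, lay in Round ST(Step 5-6). Adam29 stood at 6.64 ± 1.59 CPM at step 3 and at 150 ± 11.1 CPM in Round ST(Step 4-5). It ended sooner than the Adam6 pair: Round ST(Step 6-7) held 4.71% of the highest level of Adam29, but 38.6% of that of Adam6a and 44.0% of that of Adam6b.

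Members that neighbour each other on a chromosome mostly shared their timing. On mm10, 13 of the 31 members lie on chromosome 8, in 3 clusters and with Adam29 apart. The first cluster (chr8:24602246-25016927) holds Adam18, Adam3, Adam5 and Adam32, all of the spermatocyte group, and Adam9. The second (chr8:40675077-40827037) holds Adam24, Adam25, Adam20 and Adam39, and the third (chr8:43519762-43710049) Adam26b, Adam26a and Adam34, all of the step 3 group. Adam6b and Adam6a, the steps 4-5 pair, lie together at chr12:113489511-113546465. Adam9 breaks the pattern, since its gene lies 0.806 kb from that of Adam32 and yet had 3.73 ± 0.182 CPM in IPac/eDip SC, where Adam32 was highest, against 93.7 ± 9.48 CPM in Differentiated SG. Many neighbours in the last 2 chromosome 8 clusters and on chromosome 12 are also alike in sequence. Of the last 500 bases of the transcripts, which a 3′ library reads, Adam25 and Adam39 share 92.6% over 499 bases, Adam26a and Adam34 90.7% over 353, Adam26b and Adam34 93.2% over 292, Adam26a and Adam26b 92.8% over 292, Adam20 and Adam39 96.1% over 102, and Adam6a and Adam6b 87.9% over 463. Levels within these pairs are uncertain to the extent that reads of one copy were counted for, or lost to, the other. The sources used here do not say how such reads were treated.

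Adam10 and Adam17, of the widely expressed proteases, had their highest germ cell level in the class named Differentiated SG. The early spermatocyte list averaged 3796 CPM in this class and the differentiating spermatogonia list 1113 CPM. Adam10, which cleaves Notch receptors and the amyloid precursor, had 242, 239 and 218 CPM in Differentiated SG of NONO deltaER and 206, 177 and 172 CPM in NONO. In IPac/eDip SC it had 0.891, 2.00 and 0.890 CPM in NONO deltaER and 1.13, 0.303 and 0.530 CPM in NONO. All 6 libraries were thus lower by more than 2 orders of magnitude in the later class. Between them lay Preleptotene SC with 76.4 ± 24.2 CPM and Lep/Zygo/ePac SC with 7.26 ± 0.468 CPM. Adam17, the convertase of tumour necrosis factor, was highest among germ cells in the same class, at 142 ± 29.8 CPM, and still had 22.2 ± 0.991 CPM in IPac/eDip SC.

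Several members were also counted in somatic classes. Adam10, which was higher in Differentiated SG, had 127 ± 24.1 CPM and Adam9 113 ± 20.4 CPM in Sertoli cells. Adam17 reached 171 ± 67.1 CPM and Adam9 167 ± 50.8 CPM in macrophages, both from few UMI (72 and 72). Adam19, known from heart development, was highest in macrophages with 109 ± 50.1 CPM, and 47.9% of its UMI lay in germ cell classes. Adam12, a protease of muscle and connective tissue, was highest in the fibroblast-marked class named Unknown, with 172 ± 54.1 CPM, and had 48.4 ± 24.2 CPM in Leydig cells, while 84.8% of its UMI lay in germ cell classes, where it was highest in Round ST(Step 1-2) with 14.2 CPM. Adam8 was highest in Sertoli cells, at 13.1 ± 4.68 CPM, and among germ cells in Lep/Zygo/ePac SC, at 1.30 CPM. The SDs in these classes are wide, because a library held as few as 23 macrophages, 34 Unknown cells and 67 Leydig cells.

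The members without a catalytic site, known from the brain as receptors of LGI proteins, were split between compartments. Adam23 was highest in the class named Unknown, with 174 ± 56.6 CPM, and in Leydig cells, with 104 ± 20.8 CPM, and had 27.4 ± 7.85 CPM in Undifferentiated SG and 0.866 ± 0.297 CPM in IPac/eDip SC. Adam22 went up and down along the germ line, with 47.5 ± 9.66 CPM in Undifferentiated SG, 5.61 ± 1.03 CPM in Lep/Zygo/ePac SC and 50.7 ± 9.29 CPM in IPac/eDip SC. It had 23.4 ± 5.25 CPM in Round ST(Step 1-2) and 44.3 ± 8.80 CPM in Round ST(Step 4-5), and in Round ST(Step 6-7) 3.87 ± 0.552 CPM. Adam11 was highest in IPac/eDip SC at 14.2 ± 1.54 CPM. 4 members were too sparse for levels: Adam33 had 72 UMI in the whole series, the fertilin alpha gene Adam1a 59, the lymphoid Adam28 15 and the epididymal Adam7 3. Adam15 had 629 UMI and was highest in myoid cells at 9.62 ± 7.98 CPM, from 11 UMI.

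Germ cell members were also counted in classes that are not at their stage. The median level of the 17 in Sertoli cells was 31.4% of their level over all cells (from 19.4% for Adam29 to 70.1% for Adam21), and it was 46.3% in Leydig cells, 47.5% in myoid cells, 38.8% in the class named Unknown and 18.4% in macrophages. Each share is a level divided by the member's own level over all cells, so a spread narrower than that of the levels carries no information. In macrophages the shares still ran from 3.19% for Adam25 to 40.3% for Adam6a. Among germ cells before onset the median was 25.8% in Undifferentiated SG, but 2.56% in Differentiated SG and 5.43% in Preleptotene SC. Free RNA, cells joined in 1 droplet and low expression cannot be told apart in these values.

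In the comparison of NONO deltaER with NONO by edgeR's quasi-likelihood test, no member was called at an adjusted p under 0.05 in any of the 17 classes. The count was 0 of 223 member and class pairs, against 0.0154% of pairs called over all genes, and DESeq2 on the same sums called 4, against 0.175% over all genes. These were Adam20, Adam26a, Adam24 and Adam32, all in Undifferentiated SG. At an unadjusted p under 0.05 stood 14 pairs, against 4.78% over all genes, of which 11 were in Undifferentiated SG. Only 3 were in the other 16 classes, where 3.82% of pairs of all genes passed: Adam5 in Preleptotene SC (log2 fold change of -0.62 ± 0.31, standard error), Adam29 in Round ST(Step 3) (-0.45 ± 0.19) and Adam5 in myoid cells (-1.05 ± 0.41). The tests covered 26 members in at least 1 class, since the other 5 did not pass the filter on low counts anywhere. The count of 0 became 5 without library TA, 7 without TF and 8 without the filter on low counts. Over all genes, 22 of 143072 gene and class pairs were called as reported. That count also rose, to 703 of 145514 without TA, 658 of 146902 without TF and 972 of 336802 without the filter.

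**Figure D3:**
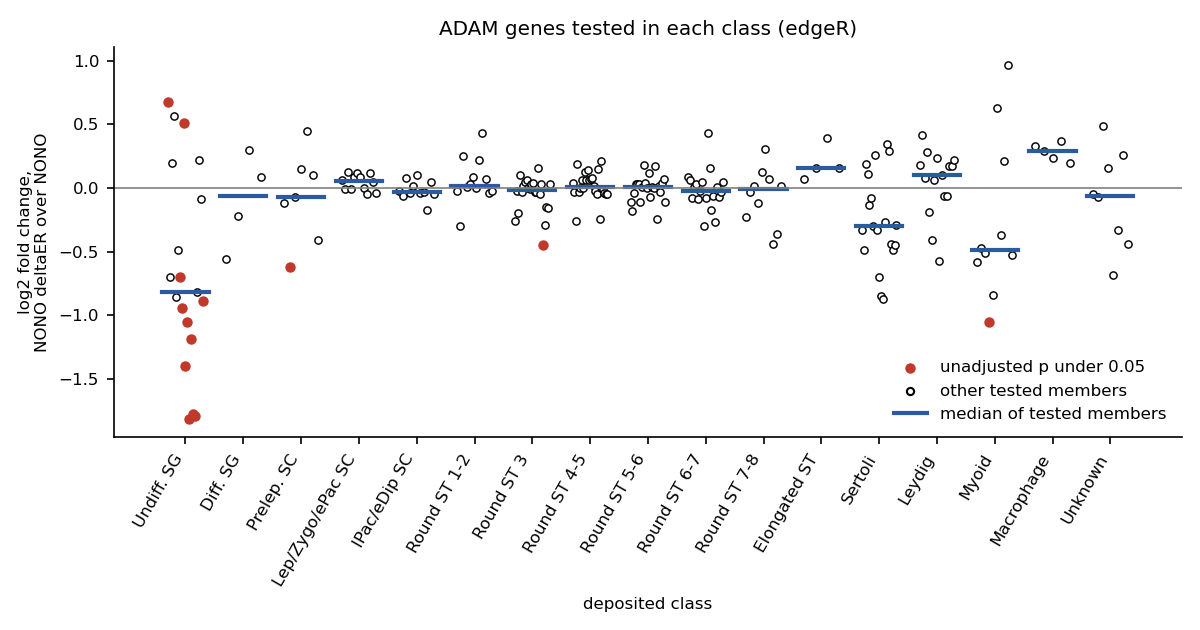
Log2 fold change, NONO deltaER over NONO, of every ADAM gene tested in each of the 17 classes (edgeR), with the median of the tested members as a bar. The medians of the classes from Lep/Zygo/ePac SC to Round ST(Step 7-8) lie between -0.03 and 0.06, and filled points, with an unadjusted p under 0.05, gather in Undifferentiated SG.

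At the stages where the germ cell members are made, their levels in the genotypes were close. In Round ST(Step 4-5), 24 members were tested and the log2 fold changes ran from -0.26 to 0.21 with a median of 0.01, the median of all genes being 0.00. Adam24 there had 289, 290 and 243 CPM in NONO deltaER and 258, 250 and 278 CPM in NONO, a log2 fold change of 0.06 ± 0.10. The libraries of the genotypes overlapped. In IPac/eDip SC Adam32 had 1748, 1629 and 1703 CPM in NONO deltaER and 1754, 1837 and 1654 CPM in NONO, with -0.04 ± 0.06. In Round ST(Step 5-6) Adam6a had 157, 169 and 174 CPM in NONO deltaER and 160, 162 and 161 CPM in NONO, with 0.07 ± 0.08, again with overlap.

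Undifferentiated SG differed from these stages. Of the 31 members 19 passed the filter on low counts, and 14 of these 19 had a log2 fold change below 0, against 48.4% of all genes. Their median was -0.82 and that of all genes 0.01. By edgeR no member was called, against 0.0271% of all genes (3 of 11064). DESeq2 called 4 of the members, against 2.53% of all genes. At an unadjusted p under 0.05, 9 members were lower in NONO deltaER, against 10.1% of all genes, and 2 were higher, against 6.1%. Libraries did not overlap between the genotypes for 5 lower members, against 7.4% of all genes, and for 3 higher ones, against 14.5%. The 13 tested members of the sperm and testis groups were below 0, with medians of -0.86 for 5 sperm-surface and -1.29 for 8 other testis members, while the medians of 4 sheddases and 2 brain members were 0.36 and 0.44. The filter bears on these counts. Adam26b, with 8, 5 and 2 UMI in NONO deltaER and 14, 10 and 13 UMI in NONO, passed it through the NONO libraries alone. The 4 germ cell members that were not tested had 15 UMI in NONO deltaER against 30 in NONO (Adam29), 11 against 17 (Adam21), 6 against 7 (Adam6b) and 21 against 12 (Adam6a), so the last ran the other way. Tested members were also mostly below 0 in Sertoli cells (14 of 19, median -0.30) and myoid cells (7 of 10, median -0.49). In the class named Unknown 5 of 8 were below 0 (median -0.06), in Leydig cells 5 of 15 (0.10) and in macrophages 0 of 5 (0.29). The medians of all genes in these somatic classes lay between -0.03 and 0.03.

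The lowest p belonged to Adam20, a testis ADAM of the step 3 group, with 9.40, 8.42 and 10.8 CPM in NONO deltaER (TD, TE, TF) and 21.7, 41.5 and 38.5 CPM in NONO (TA, TB, TC). Every NONO library was higher than every NONO deltaER library. The log2 fold change was -1.82 ± 0.33 with an unadjusted p of 7.32e-05 an edgeR adjusted p of 0.0578 and a DESeq2 adjusted p of 0.00383. It was -2.11 within the libraries of low mitochondrial percentage and -1.55 within the others. Adam26a had 15.9, 6.73 and 18.3 CPM in NONO deltaER and 28.2, 46.6 and 68.4 CPM in NONO, a log2 fold change of -1.79 ± 0.41 (adjusted p = 0.1005 by edgeR and 0.00299 by DESeq2). Adam24, testase 1, had 18.1, 10.9 and 19.9 CPM in NONO deltaER and 26.8, 46.6 and 57.0 CPM in NONO, with -1.40 ± 0.33 (adjusted p = 0.0977 by edgeR and 0.0155 by DESeq2). These also did not overlap, nor did Adam39 (-1.19 ± 0.44) and Adam26b (-1.78 ± 0.48), which passed the filter through the NONO libraries alone. Adam32, the member with the most UMI in the class, had 189, 131 and 319 CPM in NONO deltaER and 282, 425 and 479 CPM in NONO, with -0.94 ± 0.33 (adjusted p = 0.220 by edgeR and 0.0364 by DESeq2) and overlapping libraries.

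**Figure D4:**
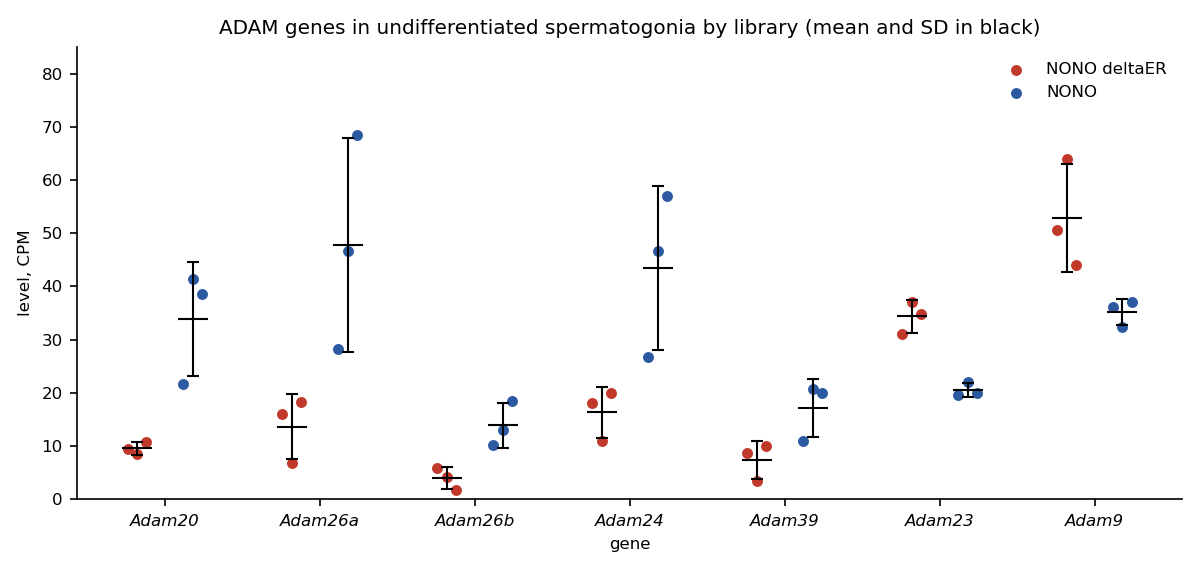
Level (CPM) in Undifferentiated SG of the 7 ADAM genes with an unadjusted p under 0.05 and libraries that do not overlap, 1 point per library with the mean and SD in black, NONO deltaER left of NONO. Adam20, Adam26a, Adam26b, Adam24 and Adam39 are lower in the NONO deltaER libraries, and Adam23 and Adam9 are higher. Adam26b passed the filter on low counts through the NONO libraries alone.

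Adam23 and Adam9 had fold changes of the other sign. Adam23 had 31.1, 37.0 and 34.9 CPM in NONO deltaER and 19.5, 22.0 and 19.9 CPM in NONO, a log2 fold change of 0.68 ± 0.23 (edgeR adjusted p = 0.169). Adam9, a sheddase, had 50.6, 64.0 and 44.0 CPM in NONO deltaER and 36.2, 32.4 and 37.0 CPM in NONO, with 0.51 ± 0.21 (edgeR adjusted p = 0.238). For both genes every NONO deltaER library was higher than every NONO library.

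The germ cell members counted in Undifferentiated SG sat in few cells. Of the UMI of the 11 members with spermatid onset, 198 of 309 in NONO deltaER and 444 of 556 in NONO came from cells with at least 5 such UMI. These were 19 of 843 cells in NONO deltaER and 41 of 660 in NONO. By library they made up 2.79%, 1.54% and 2.41% of the class in TD, TE and TF and 5.34%, 5.61% and 8.49% in TA, TB and TC, without overlap. Their median depth was 13243 UMI in NONO deltaER and 10982 UMI in NONO, against 3329 and 2995 UMI in the other cells of the class. A UMI of a round spermatid marker (Acrv1, Spaca1 or Acr) was found in 18 of these 19 cells in NONO deltaER and in all 41 in NONO, and in 9.22% and 13.2% of the other cells. A UMI of an undifferentiated spermatogonia marker was found in 9 of the 19 cells (47.4%) in NONO deltaER and in 14 of the 41 (34.1%) in NONO, and in 43.0% and 33.3% of the other cells. Choosing cells by their UMI of these members favours deep cells. Their depth and marker shares are thus in part set by the choice and are a description only.

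Some markers of other cells moved with the members in this class, and others did not. The summed level of the round spermatid markers ran from 104 to 153 CPM in NONO deltaER and from 186 to 323 CPM in NONO, and all 3 measured genes were below 0. The late spermatocyte list (Piwil1, Ccna1, Aurka, Hspa2) ran from 432 to 657 CPM in NONO deltaER and from 627 to 1044 CPM in NONO, with 4 of 4 below 0 and an overlap between the genotypes. The undifferentiated spermatogonia list ran from 361 to 533 CPM in NONO deltaER and from 298 to 324 CPM in NONO, with 0 of 4 tested genes below 0. The early spermatocyte list ran from 711 to 795 CPM in NONO deltaER and from 723 to 745 CPM in NONO, with 4 of 5 below 0. The differentiating spermatogonia list ran from 596 to 747 CPM in NONO deltaER and from 650 to 751 CPM in NONO, with 2 of 4 below 0. Both overlapped between the genotypes. No gene of these lists was at 0 in the class. The somatic lists summed to at most 23.2 CPM in any library, and the elongated spermatid list overlapped between the genotypes.

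The fit was repeated without the cells of this class that had at least 2 UMI of the round spermatid markers, a choice made after the values above were seen. This left out 47 of 843 cells in NONO deltaER and 74 of 660 in NONO. Of 10 members then tested 4 were below 0, with a median of 0.08 and with -0.02 for all genes. These are not the 19 members tested with all cells, since every member of the other testis group had too few UMI left, and the medians therefore cannot be compared. Of the sperm-surface members still tested, Adam2 had a log2 fold change of -0.41 ± 0.38, Adam32 -0.39 ± 0.60, Adam5 -0.31 ± 0.36 and Adam3 0.03 ± 0.27. The 11 spermatid-onset members summed to 12.6, 17.9 and 41.4 CPM in NONO deltaER and 16.4, 55.0 and 17.7 CPM in NONO. With all cells they summed to 81.6 ± 26.7 CPM in NONO deltaER and 215 ± 76.3 CPM in NONO (SD, n = 3 each). The libraries overlapped without the marker-carrying cells and did not with them. Leaving these cells out also took away most UMI of the 11 members, from 309 to 74 in NONO deltaER and from 556 to 56 in NONO. The part of these cells in the difference between the genotypes was not tested. Adam20 was left with 4 UMI in NONO deltaER and 6 in NONO, too few to test. Adam26a, also not tested, was left with 3 UMI in NONO deltaER and 12 in NONO, at 0.840, 0 and 2.07 CPM in NONO deltaER and 2.74, 12.8 and 4.43 CPM in NONO, and still did not overlap. The other step 3 members were not tested either. Higher in NONO deltaER by mean CPM were Adam39 (6 UMI against 0 in NONO), Adam34 (8 against 2), Adam25 (8 against 3) and Adam21 (9 against 4). Adam24 (18 against 14) was lower by mean CPM, and Adam26b had 0 UMI in both. Adam23 (log2 fold change 0.45 ± 0.25) and Adam9 (0.46 ± 0.21, edgeR adjusted p = 0.604) still had no overlap between the genotypes.

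**Figure D5:**
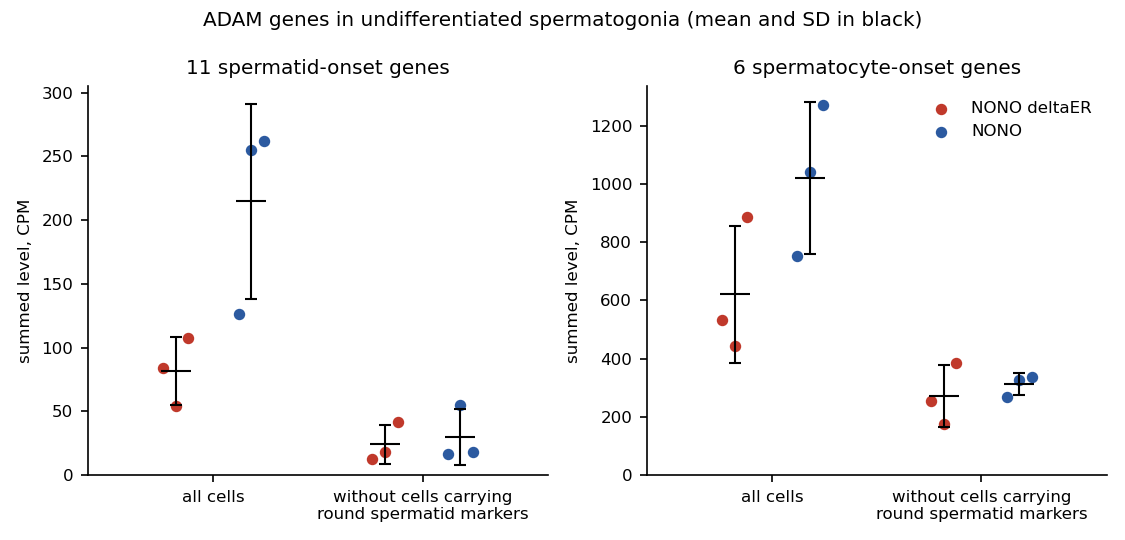
Summed level (CPM) in Undifferentiated SG of the 11 spermatid-onset and the 6 spermatocyte-onset ADAM genes, with all cells and without the cells that had at least 2 UMI of round spermatid markers, 1 point per library with the mean and SD in black, NONO deltaER left of NONO. Without those cells the genotypes overlap in both panels, and the spermatocyte-onset genes overlap with all cells too.

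Whether the response in Undifferentiated SG differed from that in Round ST(Step 4-5), where Adam20, Adam24, Adam25, Adam26a, Adam26b and Adam39 were highest, was tested with limma on the log2 ratio of these classes in each library. The other members tested were highest elsewhere. Of 18 members 0 were called, as for all 9924 genes (0%), and 6 had an unadjusted p under 0.05, against 13.5% of all genes. The difference was -1.71 for Adam20, and the lowest limma adjusted p of a member was 0.341. Adam26b, with -1.61, is among the 6. It passed the filter on low counts through the NONO libraries alone, so its difference carries no weight. The same test of Preleptotene SC called 0 of 7 members, against 0% of all genes, with 0 at an unadjusted p under 0.05, against 9.03%, and a lowest limma adjusted p of 0.676. DESeq2 was not used for these ratios.

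Summed over all cells of a library, 28 members were tested and 0 were called by edgeR, against 0% of all genes, or by DESeq2. At an unadjusted p under 0.05, 3 members were lower, against 2.76% of all genes, and 1 was higher, against 3.24%. Adam10 had 7.38, 6.47 and 5.35 CPM in NONO deltaER and 4.96, 4.32 and 3.69 CPM in NONO, without overlap. Its log2 fold change was 0.55 ± 0.15 (edgeR adjusted p = 0.823), and the ratio was 0.91 within the libraries of low mitochondrial percentage but 0.20 within the others. Adam29 had 44.1, 56.4 and 53.6 CPM in NONO deltaER and 59.1, 65.8 and 64.6 CPM in NONO, also without overlap, with -0.31 ± 0.10. Adam6a (-0.18 ± 0.07) and Adam6b were the other lower ones. The mix of cells differed as well: Differentiated SG, where Adam10 was highest, made up 1.78 ± 0.516% of the cells in NONO deltaER and 0.979 ± 0.116% in NONO, and Round ST(Step 5-6), where Adam29, Adam6a and Adam6b were highest, 7.79 ± 0.669% in NONO deltaER and 10.3 ± 0.613% in NONO (SD, n = 3 each). In such sums fewer cells of a class and less RNA per cell cannot be told apart. Within Round ST(Step 5-6) Adam29 had a log2 fold change of 0.00 ± 0.10. Within Differentiated SG, by the values given earlier, Adam10 was higher in every NONO deltaER library than in every NONO library, without being called.

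The genes that ADAM proteins depend on were followed through 4 lists. Of the 15 genes of sperm ADAM maturation and transport 14 were measured. Clgn (calmegin, the chaperone needed for fertilin and ADAM3) was highest in Round ST(Step 1-2) with 1152 ± 23.3 CPM, within the span of the spermatocyte-onset group. Pdilt, a disulfide isomerase that acts on ADAM3, was highest in Round ST(Step 4-5) with 706 ± 35.8 CPM, and Calr3, calsperin, in Round ST(Step 5-6) with 384 ± 18.6 CPM. Tex101, a surface protein required for ADAM3 on sperm, was highest in Preleptotene SC with 3636 ± 271 CPM, and Pgap1, a remodelling enzyme of GPI anchors, in Undifferentiated SG with 64.4 ± 9.03 CPM. By edgeR no gene of the list was called in any class (0 of 148 pairs, against 0.0154% of pairs over all genes), and 12 pairs had an unadjusted p under 0.05, against 4.78% over all genes, of which 6 were in Undifferentiated SG. There 9 of the 12 tested genes were below 0, against 48.4% of all genes. DESeq2 called Pdilt and Cmtm2a in that class, where it called 2.53% of all genes. Pdilt had 34.7, 20.2 and 56.4 CPM in NONO deltaER and 69.5, 99.7 and 124 CPM in NONO, a log2 fold change of -1.42 ± 0.36 (edgeR adjusted p = 0.126), without overlap. The round spermatid markers of that class, given above, moved the same way, and their part in this was not tested.

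Partners and inhibitors of the sheddases were measured for 13 of 16 listed genes, with 0 of 77 pairs called by edgeR or DESeq2 and 12 at an unadjusted p under 0.05, against 4.78% over all genes. Tspan5, a tetraspanin that carries ADAM10, was highest in Sertoli cells with 198 ± 43.4 CPM, and Tspan33 and the ADAM10 inhibitor Reck in Differentiated SG, the class where Adam10 had its highest germ cell level. Reck in Sertoli cells had 42.2, 47.8 and 57.9 CPM in NONO deltaER and 27.8, 26.8 and 24.0 CPM in NONO, a log2 fold change of 0.90 ± 0.29 (edgeR adjusted p = 0.960). The genotypes did not overlap. At an unadjusted edgeR p under 0.05 Reck was also higher in Undifferentiated SG (0.47 ± 0.20) and Preleptotene SC (0.67 ± 0.29), but lower in IPac/eDip SC (-0.45 ± 0.19). Timp2 had the highest level of the list, 1651 ± 505 CPM in the class named Unknown. By the same rule it was higher in IPac/eDip SC (0.35 ± 0.13) and from Round ST(Step 3) to Round ST(Step 6-7), with overlap only in Round ST(Step 4-5). Sheddase substrates gave 0 called of 30 pairs by either tool from 12 measured genes, with 3 at an unadjusted p under 0.05, against the same 4.78%. These were Notch1 and Notch2, receptors cut by ADAM10, in Sertoli cells (1.01 ± 0.37 and 0.59 ± 0.26) and Tnf, the substrate of ADAM17, in macrophages (1.35 ± 0.45, edgeR adjusted p = 0.690). The LGI ligands of Adam22 and Adam23 were all measured at low levels, Lgi4 with 25.6 ± 9.04 CPM in the class named Unknown, where Adam23 was highest, and 0 of 13 pairs were called by either tool, with 0 at an unadjusted p under 0.05.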

How the data were processed

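UMI counts per gene and cell, whole numbers without normalization, were deposited by the authors with a table of library, group and class per cell. Cell Ranger 2.1.1 and mm10 are named in the submitters' processing notes, and the sources used here do not name earlier filters. Every deposited cell had at least 500 UMI and at most 5.0% mitochondrial UMI, the authors' percent value. Doublets were not called, and leaving out the 5% of cells with the most UMI per library and class was an alternative. UMI were summed by library and class and fitted with edgeR 4.0.16 under R 4.3.3 (TMM, filterByExpr, robust quasi-likelihood, Benjamini-Hochberg over all genes of a class, threshold 0.05). Ratios of classes were fitted with limma 3.58.1 with a prior count of 2. DESeq2 1.42.0 was an alternative. The fits were tested on simulated counts. Members and gene lists were chosen with earlier results of these data known. Role groups rest on general knowledge. Named were the 4 members of each role group with the highest class level, called members, members with an unadjusted p under 0.05 and libraries that do not overlap, and, by counts, members under 100 UMI; others were named after their values were seen. All 31 genes matched GENCODE M21. Transcript ends were compared with blastn. The range of depth limits precision to counting error plus the spread of 3 libraries per group. Adam1b, Adam4 and protein sequences were not analysed here.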

Additional observations from a re-analysis of the deposited data

How the results depend on the processing

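The count of members called over the 17 classes, 0 as reported, was 4 with DESeq2, 8 with no filter on low counts and 1 without the 5% of cells with the most UMI. It ran from 0 to 7 when each library was left out in turn, with 5 without TA, 7 without TF and 0 without any of the other 4. Why TA and TF had this effect was not tested. Over all genes more gene and class pairs were called too, 703 of 145514 without TA and 658 of 146902 without TF. The count was 972 of 336802 with no filter and 212 of 134629 without the 5% of cells with the most UMI. With DESeq2 it was 248 of 141563, against 22 of 143072 as reported. RLE size factors, cells with at least 1000 UMI, the mitochondrial set as a covariate and leaving out marker-carrying cells of Undifferentiated SG, an alternative added after the data were seen, gave 0. All these calls lay in that class except Adam26a in IPac/eDip SC with no filter and in Sertoli cells without TF. Adam26a was past the threshold in 5 of 12 settings there, with log2 fold changes from -2.49 to -1.45, and Adam20 and Adam24 in 4 of 12. Adam20 ran from -2.13 to -1.65 with adjusted p from 9.59e-06 to 0.366. Single named members gave no reversed direction in any setting in which they were tested. Without the marker-carrying cells Adam20, Adam24, Adam26a, Adam26b and Adam39 were not tested. Adam39 then had 6 UMI in NONO deltaER against 0 in NONO, while Adam20 (4 against 6) and Adam26a (3 against 12) kept their direction. With at least 1000 UMI per cell macrophages could not be fitted. The counts over all cells and for the response difference were 0 in every setting run. No paired analysis was possible because the libraries carry letters and no replicate number of the labels. Classes with few cells and members with few UMI limit what these fits can detect.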
